A study of Caenorhabditis elegans with 6 samples.

Results

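The *col* genes of *C. elegans* form a large family of cuticle collagen genes and are described here in day 2 adults of the wild type and of a strain that lacks the muscleblind homologue *mbl-1*. Of the 46726 gene identifiers in the count data, 156 carried a symbol that starts with *col-*, and the 121 of them with at least 10 counts summed over all libraries were taken as the family members. The remaining 35 lay under that limit, 5 of them with 0 counts. The member nearest to the limit was *col-79* with 10 counts in all, and the nearest genes outside were *col-46* and *col-61* with 9 counts each. Poly(A) RNA of whole animals was sequenced in 6 libraries, 3 from N2, the wild-type laboratory strain, and 3 from *mbl-1(tm1563)* mutants, which carry a deletion that removes an exon common to every *mbl-1* isoform and had been outcrossed to N2. Both strains grew at 20 °C from synchronised L1 larvae on HT115 bacteria with the empty RNAi vector, and both received 10 µM 5-fluorouracil from the L4 stage, which keeps progeny from hatching. All animals were taken on day 2 of adulthood, the 5th day from hatch. The libraries of a strain are described as biological replicates with nothing further on how they were kept apart, so the p-values measure the spread between these libraries.

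The cuticle is an extracellular matrix that the hypodermis, the skin epithelium of the worm, secretes and rebuilds at every larval molt. It consists mostly of small collagens with Gly-X-Y repeats whose chains are hydroxylated, wound into trimers, trimmed by proteases and cross-linked outside the cell. Many *col* genes are used at a set stage, in larvae, in dauers or in adults, and adults no longer molt. MBL-1 is an RNA-binding protein of the muscleblind family, which controls alternative splicing and the handling of messenger RNA.

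Library totals ran from 17574738 to 20750318 counts on genes. The *mbl-1* gene itself (WBGene00019347, WBcel235 chromosome X, 16978608 to 17010302) was read with 233, 245 and 228 counts in N2 replicates 1 to 3 and with 70, 138 and 106 counts in the mutant replicates, so the strains did not overlap. Its log2 fold change was -1.14 (SE 0.24, adjusted p = 0.0382, edgeR quasi-likelihood F-test, Benjamini-Hochberg adjusted). It passed in 1 of the 6 fits that left out a library, with values between -1.39 and -0.89. The counts span the whole gene and do not show the deleted exon on its own. Mutant replicate 1 stood apart for long genes, whose median log2 ratio to the N2 mean was -0.64 for exons over 4000 bases in that library, -0.30 in mutant replicate 3 and 0.01 in mutant replicate 2. For exons up to 1500 bases the medians were 0.09, -0.03 and 0.02 in mutant replicates 1 to 3. The tested *col* genes had exons of 870 to 2960 bases with a median of 1034. Reads aligned to several places, which the counts leave out, were 9.74 to 9.87% of reads in N2 and 7.34 to 8.08% in the mutants (exact permutation p = 0.1, two-sided, the smallest value that 3 against 3 libraries allow). Their part in the *col* values was not tested.

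As a group, the *col* genes took up less of the transcriptome in *mbl-1(tm1563)* animals. Levels are given in CPM, counts per 1000000 of a library total scaled by TMM, which matches libraries on the bulk of their genes. Summed over the 121 members, the level was 13356, 12612 and 12551 CPM in N2 replicates 1 to 3 and 9843, 7508 and 8828 CPM in the mutant replicates. Every mutant library lay under every N2 library, and mutant replicate 2 was the lowest. The mutant mean was 0.680 of the N2 mean, and it was 0.723 with plain library totals and 0.681 without *col-101*, the member with the most counts. The family made up 1.21 to 1.31% of all gene counts in N2 and 0.729 to 1.07% in the mutants. In whole animals, fewer cells of a type and less RNA per cell cannot be told apart. The 8 genes taken as hypodermis markers, *col-19* among them, summed to 428 to 458 CPM in N2 and 371 to 410 CPM in the mutants, with none at 0. *col-19*, a family member itself, gave most of that sum, with 261 to 293 CPM in N2 and 218 to 266 CPM in the mutants. Without *col-19* the marker sums of the strains overlapped. Of those 8, 7 had a negative log2 fold change, none passed an adjusted p under 0.05 at 2-fold or more (4 were lower at an unadjusted p under 0.05, and DESeq2 called none), and *elt-3* passed on adjusted p alone, which it did not without N2 replicate 1, 2 or 3 or without mutant replicate 3 (adjusted p up to 0.126, edgeR). The 4 markers of body wall muscle summed to 659 to 740 CPM in N2 and 347 to 576 CPM in the mutants, with a median log2 fold change of -0.61. Of these, 2 were lower on adjusted p, and 0 without N2 replicate 1, N2 replicate 3 or mutant replicate 3 and 0 with a correction for exon length, where the median was -0.27. That correction also moved the median over all tested genes, from -0.04 to 0.05. The 3 pharynx markers summed to 38.3 to 43.2 and 19.7 to 32.5 CPM (median -0.60, 2 lower at an unadjusted p under 0.05, 2 on adjusted p by DESeq2). With the correction for exon length the pharynx median was -0.23, and 1 of the 3 was positive. In that edgeR fit 1 was lower on adjusted p and 1 at an unadjusted p under 0.05. The sum of the intestine markers was nearly all the yolk gene *vit-2*, at -0.78 (adjusted p = 0.0682, edgeR quasi-likelihood F-test), while *elt-2*, *ges-1* and *act-5* were at -0.17, -0.20 and -0.10. Of these 4 markers, 1 was lower on adjusted p with DESeq2, library size alone, upper quartile scaling or the length correction. The same count held without mutant replicate 1 or 2. Neuron markers, at 180 to 187 and 187 to 195 CPM (median -0.12), and germ line markers, at 1989 to 2107 and 1463 to 2221 CPM (median -0.02), had 0 members lower on adjusted p by edgeR or DESeq2 and 1 lower at an unadjusted p under 0.05, a neuron marker. The part of tissue make-up in the *col* result was not tested.

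**Figure D1:**
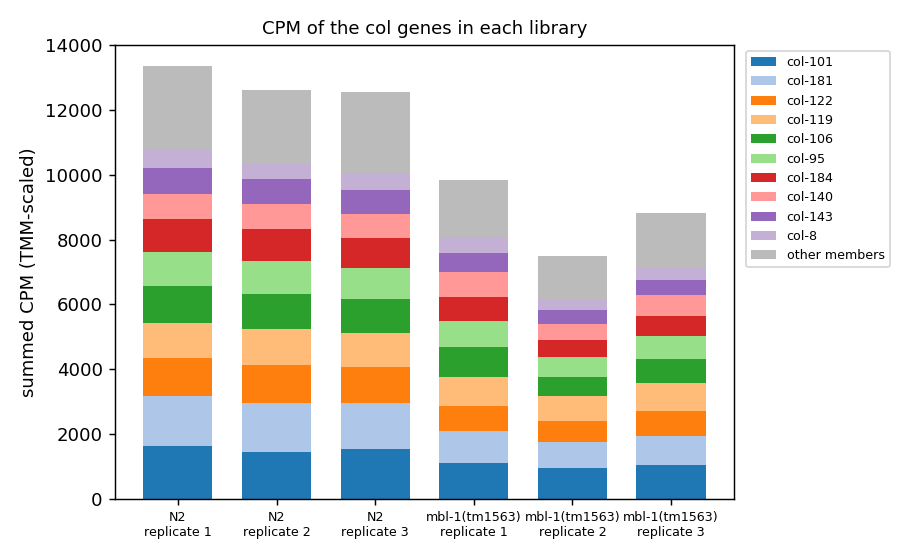
Stacked bars of the summed level of the *col* genes in each of the 6 libraries, in TMM-scaled CPM from 0, with the 10 most abundant members coloured and the other members in grey. The N2 bars reach 12551 to 13356 CPM and the mutant bars 7508 to 9843 CPM.

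Of the 121 members, 74 passed the filter on low counts, and 58 of those exceeded its limit in all 6 libraries. With the edgeR quasi-likelihood test over 12335 genes, a call required 2-fold or more and an adjusted p under 0.05. In the mutants 6 of the 74 tested members were lower, against 1.14% of all tested genes, and these 6 were 8.11% of the members. None was called higher, against 0.681% of all genes. At an unadjusted p under 0.05, 26 members were lower and 3 higher, and DESeq2 called 1 higher, *col-107*. The share of all tested genes at that unadjusted limit was not computed. Such counts, for the members and for every marker or gene list, therefore have no background beside them. On adjusted p alone, 15 members (20.3%) were lower and 0 higher, against 3.58% and 1.77% of all tested genes. In 28 members every mutant library lay under every N2 library (37.8%, against 17.9% of all tested genes), and in 7 every mutant library lay above (all tested genes 14.7%). The median log2 fold change was -0.18 over the tested members and -0.04 over all tested genes, with 44 negative members (55.2% of all tested genes were negative) and 30 positive. Leaving out N2 replicate 1 lowered the calls from 6 to 3. The 15 members lower on adjusted p became 6 without N2 replicate 1, 7 without N2 replicate 3, 5 without mutant replicate 3 and 25 without mutant replicate 1. Without replicate 3 of both strains, a fit of 2 against 2 libraries chosen after seeing the data, 0 members and 1 of 12482 genes were called lower, while 21 members were lower at an unadjusted p under 0.05.

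**Figure D2:**
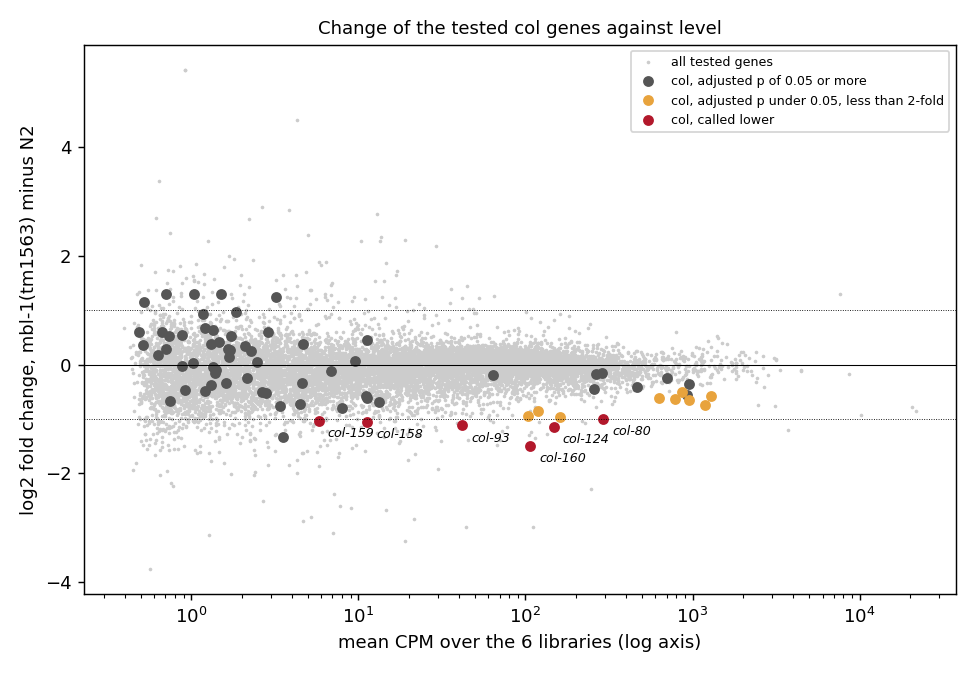
Log2 fold change (mutant minus N2, linear axis) against mean CPM over the 6 libraries (log axis) for all 12335 tested genes in grey and the 74 tested *col* genes in larger points, coloured by whether they passed the adjusted p and the 2-fold limit. The 6 called members lie between -1.49 and -1.003, and dotted lines mark a 2-fold change.

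The 6 called members are all predicted cuticle collagens. The one with the largest change was *col-160* (WBGene00000733, chromosome V of WBcel235, 13200982 to 13202189), which had 171, 144.5 and 156 CPM in N2 and 53.1, 55.3 and 60.0 CPM in the mutants. The strains were far apart next to the spread within each. It fell by 1.49 on the log2 scale (SE 0.09, adjusted p = 0.000457, edgeR quasi-likelihood F-test, Benjamini-Hochberg adjusted), with the call present in all 6 fits that left out a library. Its neighbour *col-159* (WBGene00000732, V, 13198231 to 13202177) is annotated across nearly all of *col-160* on the same strand and shares 21 exonic bases with it, so reads of the pair may be divided uncertainly. *col-159* had 8.08, 6.62 and 8.58 CPM in N2 and 3.42, 3.75 and 4.20 CPM in the mutants, again without overlap. It fell by 1.03 (SE 0.15, adjusted p = 0.0114, same test), but the call was present in 1 of 6 fits with a library left out.

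Another member on chromosome V, *col-158* (WBGene00000731, 11829582 to 11831219), was the most even across libraries, with 15.4, 14.1 and 16.2 CPM in N2 and 7.30, 7.61 and 7.15 CPM in the mutants. It fell by 1.05 (SE 0.11, adjusted p = 0.00298, edgeR quasi-likelihood F-test, Benjamini-Hochberg adjusted) and kept its call whichever library was left out. Its exons overlap *D2023.15* and *nphp-4* by 172 bases, and counting without regard to strand cannot assign reads there. On chromosome IV, *col-124* (WBGene00000698, 10216451 to 10217617) had 204, 179 and 226 CPM in N2 against 92.6, 80.2 and 103 CPM in the mutants. The highest mutant library was well under the lowest N2 library. The gene fell by 1.14 (SE 0.12, adjusted p = 0.00333, same test) and held the call in all 6 such fits, with 71 exonic bases shared with *qns-1*.

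*col-80* and *col-93* shared no exonic bases with another gene. *col-80* (WBGene00000656, chromosome II, 10707201 to 10708287) was the most abundant of the 6, with 431, 357 and 385 CPM in N2 and 197, 173 and 215 CPM in the mutants. It sat at the 2-fold limit, at -1.003 (SE 0.11, adjusted p = 0.00371, edgeR quasi-likelihood F-test, Benjamini-Hochberg adjusted), and was called in 4 of 6 fits with a library left out and in 2 of 11 other settings, with 8 of the rest placing it short of 2-fold. *col-93* (WBGene00000668, chromosome III, 10984552 to 10985609) was the most uneven, with 65.6, 40.01 and 66.8 CPM in N2 and 29.6, 19.1 and 30.6 CPM in the mutants. Replicate 2 was the lowest library of both strains. Its log2 fold change was -1.12 (SE 0.24, adjusted p = 0.0403, same test), and the call was present in 1 of 6 fits with a library left out.

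Most of the members that passed on adjusted p were those with high levels, 13 of the 15. Mean CPM over the 6 libraries left a gap between 13.3 and 41.9, and a split at 20 CPM, set after the levels were known, gave 21 abundant members, which held 97.8 to 98.6% of the family's counts in every library, and 53 tested members at low level. All 21 abundant members had a negative log2 fold change, between -1.49 and -0.15 with a median of -0.61, against 48.2% of the 6033 tested genes at 20 CPM or more. The sign was negative for all 21 under every scaling tried, and for 20 of 21 when mutant replicate 2 was left out. Of the 21, 4 were called lower (19%, against 0.481% of genes at that level), and 13 were lower on adjusted p alone (61.9%, against 3.02%). The 4 calls became 2 without N2 replicate 1, 2 without mutant replicate 2, 6 without N2 replicate 2 and 2 with library size alone, and the 13 became 5 without N2 replicate 1, 6 without N2 replicate 3 and 4 without mutant replicate 3. In 17 of 21 every mutant library was under every N2 library (81.0%, against 13% of genes at that level). Mutant replicate 2 was the lowest of the 6 libraries in 20 of 21, and in 2343 of all 12335 tested genes. The median log2 ratio of the 21 members to the N2 mean was -0.37 in mutant replicate 1, -0.81 in replicate 2 and -0.61 in replicate 3.

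**Figure D3:**
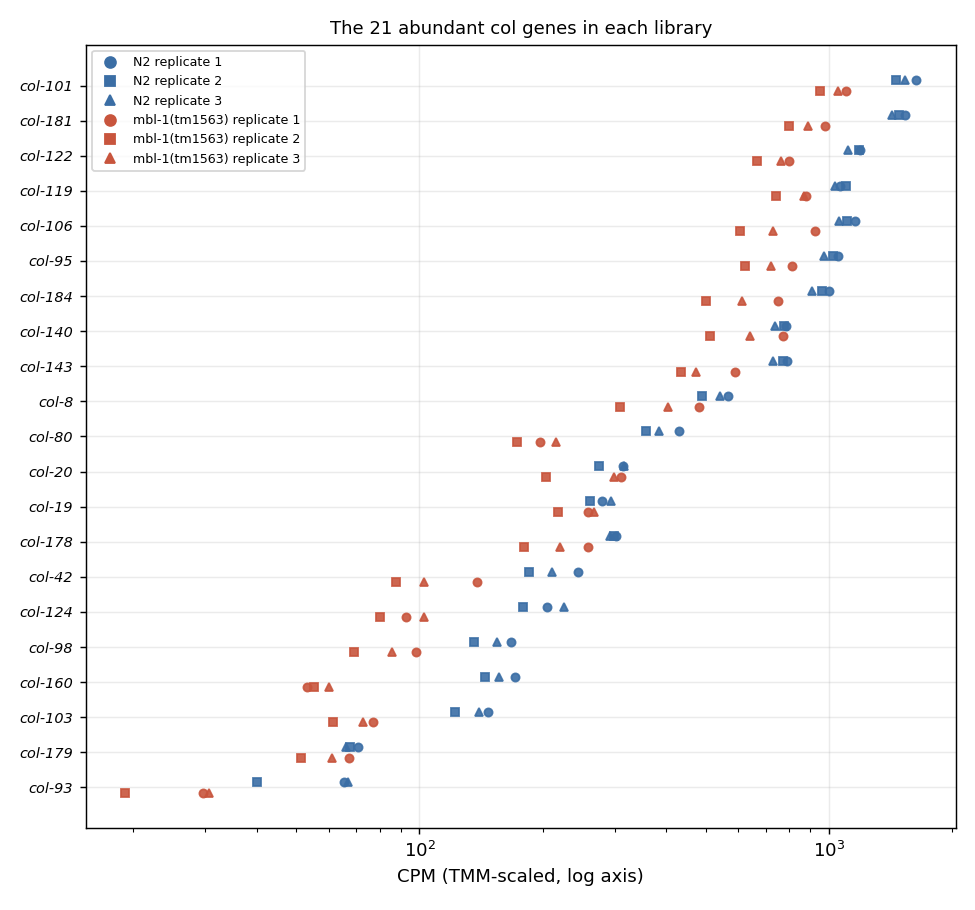
Level of the 21 abundant *col* genes in each library, in TMM-scaled CPM on a log axis, ordered by mean level, with N2 in blue, the mutants in red and a symbol for each replicate. In 17 of the 21 genes the red points lie entirely to the left of the blue ones, and the red square, mutant replicate 2, is the lowest point in 20.

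The most abundant member, *col-101* (WBGene00000675, chromosome IV, 325435 to 327020), had 1631, 1457 and 1530.2 CPM in N2 and 1100.0, 949 and 1051 CPM in the mutants. The strains were apart, and the gene was lower by 0.58 on the log2 scale (SE 0.08, adjusted p = 0.0113, edgeR quasi-likelihood F-test, Benjamini-Hochberg adjusted), short of 2-fold. *col-181* (WBGene00000754, chromosome X, 12104930 to 12106102) had 1532, 1486 and 1429 CPM in N2 and 980.0, 798 and 889 CPM in the mutants, a log2 fold change of -0.74 (SE 0.09, adjusted p = 0.0059, same test). *col-122* (WBGene00000696, chromosome IV, 9563379 to 9564441) followed with 1189, 1185 and 1116 CPM in N2 and 798, 667 and 763 CPM in the mutants, at -0.65 (SE 0.09, adjusted p = 0.00801, same test). Each of these adjusted p-values passed 0.05 in only part of the fits with a library left out, where the highest was 0.0784 for *col-101*, 0.057 for *col-181* and 0.0611 for *col-122*.

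Per kilobase of exon, the order of the leading members was different, with *col-119* at 1090 CPM per kb, *col-181* at 1062, *col-106* at 1044, *col-122* at 996 and *col-101* at 908 CPM per kb over the 6 libraries. The 10 members with the highest CPM, which besides *col-101*, *col-181* and *col-122* were *col-119*, *col-106*, *col-95*, *col-184*, *col-140*, *col-143* and *col-8*, held 80.2 to 82.1% of the family's counts. Of those 7, *col-95* (-0.50, adjusted p = 0.0364), *col-184* (-0.63, adjusted p = 0.0464) and *col-143* (-0.61, adjusted p = 0.0282) passed the adjusted p of the edgeR quasi-likelihood test. The other 4 did not, at -0.36 for *col-119*, -0.55 for *col-106*, -0.25 for *col-140* and -0.42 for *col-8*. In *col-140* the strains overlapped, with 788, 775 and 737 CPM in N2 and 773, 512 and 643 CPM in the mutants, so mutant replicate 1 was within the N2 range there and the other mutant libraries were under it.

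Close to the 2-fold limit were *col-42*, *col-103* and *col-98*, whose adjusted p passed and whose fold did not. *col-42* had 243, 185 and 211 CPM in N2 and 138, 87.5 and 103 CPM in the mutants (log2 fold change -0.96, SE 0.17, adjusted p = 0.0239, edgeR quasi-likelihood F-test, Benjamini-Hochberg adjusted). *col-103* had 147, 122 and 140 CPM against 77.1, 61.6 and 72.8 CPM (-0.95, SE 0.11, adjusted p = 0.00469, same test), and *col-98* had 167, 136 and 155 CPM against 97.8, 69.0 and 85.6 CPM (-0.86, SE 0.14, adjusted p = 0.0144, same test). In all of them N2 replicate 2 was the lowest N2 library and mutant replicate 2 the lowest mutant library, and no mutant value reached the N2 range. Leaving out a library brought *col-42* and *col-103* past 2-fold in 2 of 6 fits each.

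The abundant members with the smallest change included *col-19*, the standard marker of the adult cuticle. *col-19* (WBGene00000608, chromosome X, 421707 to 422691) had 280, 261 and 293 CPM in N2 and 258, 218 and 266 CPM in the mutants. The strains overlapped, and the log2 fold change was -0.17 (SE 0.09, adjusted p = 0.32, edgeR quasi-likelihood F-test, Benjamini-Hochberg adjusted). *col-20* was at -0.15 and *col-179* at -0.19, also with overlap. At 282 CPM per kb, *col-19* stood level with *col-80* at 282 CPM per kb, which was called lower, and whether the changes of the pair differ was not tested.

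The 53 tested members at low level, with means of 0.489 to 13.3 CPM, showed no shared direction. Of them 23 had a negative and 30 a positive log2 fold change, the median was 0.13, and 2 were called lower (*col-158* and *col-159*). This median depends on which genes passed the filter, since 16 of the 53 did not exceed its limit in all 6 libraries and 14 of those 16 had a positive value. Of the 16, 9 exceeded the limit in all mutant but not all N2 libraries, 2 the other way and 5 in all libraries of neither strain. *col-41*, *col-90* and *col-65*, described below, were among the 16. With only the 37 members at 10 or more counts in every library the median was -0.11. The summed level of all 53 was 171 to 183 CPM in N2 and 143 to 163 CPM in the mutants. With plain library totals the strains overlapped, at 164.6 to 177.5 CPM in N2 and 146.7 to 177.6 CPM in the mutants. The 47 untested members had 10 to 82 counts in all and no more than 32 in a library, 616 counts together in N2 and 719 in the mutants.

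Among the low-level members 15 had a log2 fold change of at least 0.5, and none of them was called. The highest was *col-41* with 6, 17 and 0 counts in N2 and 23, 27 and 6 in the mutants (1.30, SE 0.81, adjusted p = 0.361, edgeR quasi-likelihood F-test, Benjamini-Hochberg adjusted), and its libraries overlapped. *col-90* had 18, 31 and 1 counts in N2 and 76, 34 and 11 in the mutants (1.30, SE 0.79, adjusted p = 0.355, same test), and overlaps *let-754* by 98 exonic bases. In both genes replicate 3 was the lowest library of its strain. Over the 15 genes, N2 replicate 3 was the lowest N2 library in 12, N2 replicate 2 the highest in 13, and mutant replicate 3 the lowest mutant library in 11. *col-107* and *col-65* are named because of their values. *col-107* had 2.06, 2.59 and 1.006 CPM in N2 and 5.54, 5.23 and 2.78 CPM in the mutants. *col-65* had 14, 16 and 4 counts in N2 and 34, 30 and 18 in the mutants. Neither overlapped between strains, and replicate 3 was again the lowest library of each. *col-107* did not pass (log2 fold change 1.24, adjusted p = 0.095, same test), nor did *col-65* (1.29, adjusted p = 0.117), and *col-107* was called higher by DESeq2 with an adjusted p of 0.0101.

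**Figure D4:**
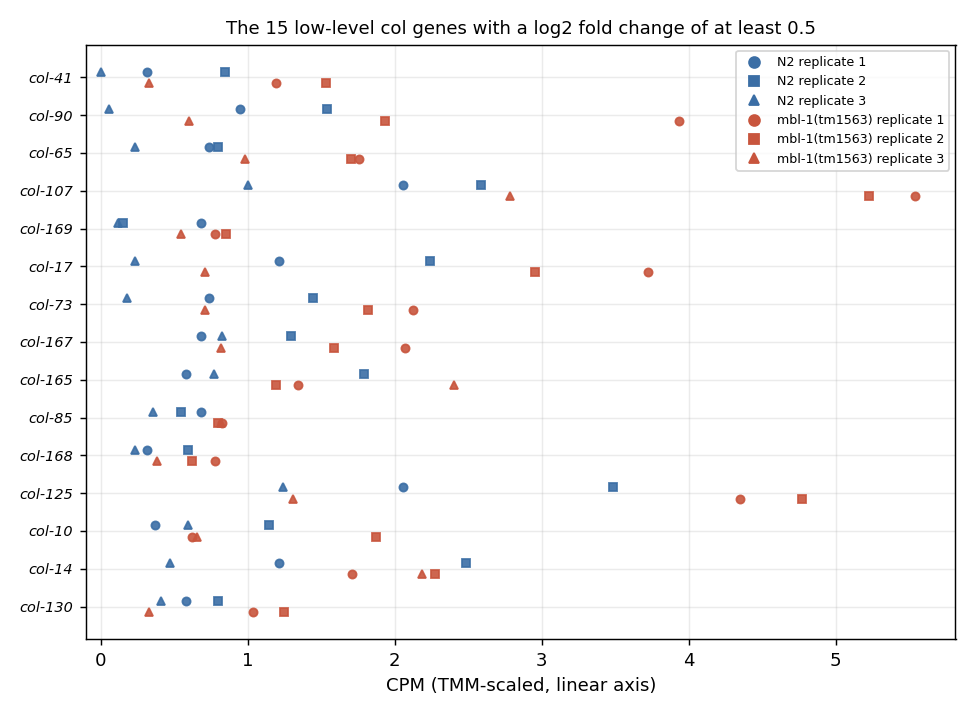
Level of the 15 low-level *col* genes with a log2 fold change of at least 0.5, in TMM-scaled CPM on a linear axis, ordered by log2 fold change. Replicate 3, the triangles, is the lowest N2 library in 12 and the lowest mutant library in 11 of the 15 genes, and all but 3 of the genes overlap between strains.

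At the other end, *col-150* had the most negative value among the members that were not called, with 112, 58 and 110 counts in N2 and 46, 38 and 27 in the mutants. The strains did not overlap, with 2.89 to 6.51 CPM in N2 and 1.47 to 2.38 CPM in the mutants. Its log2 fold change was -1.33 (SE 0.34, adjusted p = 0.0644, edgeR quasi-likelihood F-test, Benjamini-Hochberg adjusted), and it was called in 4 of 11 other settings, DESeq2 among them, and in 2 of 6 fits with a library left out.

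Members with a known stage or role were mostly scarce in these adults. Of the collagens used in adults or at the L4-to-adult change, *col-38* had 41, 59 and 36 counts in N2 and 41, 49 and 48 in the mutants (log2 fold change 0.05, adjusted p = 0.898, edgeR quasi-likelihood test), and the sign turned in some fits with a library left out. *col-7* had 5, 10 and 4 counts in N2 and 1, 2 and 1 in the mutants, under the filter, and *col-62*, *col-49* and *col-63* had 11, 12 and 14 counts in all 6 libraries. The dauer collagen *col-2* had 30 counts in all, and *col-40*, another dauer collagen, was under the member limit with 6. Of the collagens linked to long life in *C. elegans*, *col-144* was at -0.48 (adjusted p = 0.258, same test) and *col-10* at 0.54 (adjusted p = 0.574), and *col-120* and *col-13* had 34 and 38 counts in all. *col-10* turned to -0.11 without mutant replicate 2. Of the collagens under control of the BMP ligand DBL-1, 3 were tested and 2 of them had positive values, *col-41* at 1.30 and *col-10* at 0.54, neither past the threshold. The other, *col-142*, had 15.99, 14.7 and 18.6 CPM in N2 and 13.3, 7.95 and 9.44 CPM in the mutants. Those strains did not overlap, and the gene did not pass, at -0.68 (SE 0.19, adjusted p = 0.0874, same test). *col-141*, beside it, had 22 counts in all. *col-12*, the near-identical neighbour of *col-13*, had 49 counts, and reads that fit both are left out of the counts. *col-99*, a membrane collagen outside the cuticle, was at -0.52 (adjusted p = 0.362, same test) and shares 108 exonic bases with *daf-1*.

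The members lie on all 6 chromosomes, 33 on IV, 26 on V, 21 on X, 17 on II and 12 each on I and III. The tested genes were short and simple, with a median of 2 exon blocks. The 6 calls were 3 of the 17 tested members on V, 1 of 13 on II, 1 of 8 on III and 1 of 21 on IV. There were 21 pairs of adjacent members within 5 kb of each other, with 35 members among them, and both genes were tested in 11 pairs. In 9 of the 11 the log2 fold changes had the same sign, negative in 7 and positive in 2. Some genes stand in more than 1 pair, and no share for members that lie apart was computed. In 1 pair, *col-159* and *col-160*, whose exons overlap, both genes were called. Neighbours could be used at very different levels, with at least a 10-fold difference per kilobase of exon in 7 of the 11. *col-20* was at 288 CPM per kb and *col-73*, 1306 bases away on the same strand, at 1.19 CPM per kb. *col-80*, at 282 CPM per kb, was called lower, while *col-39* next to it, at 1.33 CPM per kb, had a log2 fold change of -0.16.

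The genes around the *col* family were read by list, beside 1.14% of all tested genes called lower and 0.681% called higher. Of 20 cuticle collagens with other symbols, such as *dpy*, *rol* and *sqt* genes that shape the body, 16 were tested and 0 were called by DESeq2 or by edgeR with strain as the only factor, while at an unadjusted p under 0.05 edgeR gave 2 higher and 0 lower. Their median log2 fold change was 0.38, and 15 of 16 were positive, 12 of 16 without N2 replicate 3. The 3 with the smallest p were *sqt-2* (1.24, adjusted p = 0.122), *rol-8* (1.03, adjusted p = 0.141) and *rol-6* (1.18, adjusted p = 0.265, edgeR quasi-likelihood test for all). N2 replicate 3 was the lowest N2 library in 13 of the 16 and mutant replicate 3 the lowest mutant library in 12, where over all 12335 tested genes these counts were 3720 and 2306. Of the 30 low-level *col* genes with positive values, N2 replicate 3 was the lowest N2 library in 17 and mutant replicate 3 the lowest mutant library in 14. The part of this replicate difference in the values was not tested.

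Of 13 tested genes that modify, process or cross-link collagen, none was called by edgeR or DESeq2, 2 were lower on adjusted p alone, and at an unadjusted p under 0.05 edgeR gave 6 lower and 1 higher. That 6 was 3 with RLE scaling, with library size alone or without N2 replicate 1, N2 replicate 2 or mutant replicate 3, and 2 with DESeq2. The 2 genes lower on adjusted p alone in edgeR were *mlt-7*, a peroxidase that cross-links the cuticle, and *bli-3*, the dual oxidase that supplies its hydrogen peroxide. *mlt-7* had 21.96, 24.7 and 20.4 CPM in N2 and 11.5, 10.9 and 12.01 CPM in the mutants (log2 fold change -0.97, SE 0.11, adjusted p = 0.00451, edgeR quasi-likelihood F-test, Benjamini-Hochberg adjusted). *bli-3* had 14.9, 15.4 and 14.7 CPM in N2 and 8.85, 10.2 and 8.51 CPM in the mutants (-0.71, SE 0.11, adjusted p = 0.0122, same test). With the correction for exon length *bli-3* was at -0.37 (adjusted p = 0.0948, edgeR), and it missed 0.05 without N2 replicate 1, 2 or 3 or mutant replicate 3. Neither overlapped between strains. The prolyl 4-hydroxylase subunit *dpy-18* was at 0.01 and the disulfide isomerase *pdi-1* at 0.25, neither past the threshold.

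Of 19 tested cuticlins and cuticlin-like genes, which encode the insoluble non-collagen part of the cuticle, 2 were called lower and 0 higher (all tested genes 1.14% and 0.681%), 1 and 0 by DESeq2, which gave *cut-6* no adjusted p, and 3 and 2 at an unadjusted p under 0.05 in edgeR. *cutl-18* had 7.23, 6.77 and 8.28 CPM in N2 and 3.93, 3.52 and 2.95 CPM in the mutants (-1.09, SE 0.15, adjusted p = 0.0102, edgeR quasi-likelihood F-test, Benjamini-Hochberg adjusted). The 2 became 0 without N2 replicate 1, N2 replicate 3 or mutant replicate 3, and 1 without N2 replicate 2 or mutant replicate 1. *cut-6* had 0.897, 1.19 and 0.828 CPM in N2 and 0.311, 0.398 and 0.382 CPM in the mutants (-1.42, SE 0.30, adjusted p = 0.0372, same test), and it was called in 1 of 6 fits with a library left out against 3 of 6 for *cutl-18*. *cutl-14* was at -1.04 and did not pass. None of the 15 molting genes was called by edgeR or DESeq2 and 2 were lower at an unadjusted p under 0.05 in edgeR, with *noah-1* at -0.61, *nekl-2* at -0.45 and *mlt-10* at -0.41 the nearest.

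Among 22 genes listed as regulators of cuticle collagen transcription, 1 was called lower and 0 higher (all tested genes 1.14% and 0.681%), 2 and 0 by DESeq2, and 8 were lower and 0 higher at an unadjusted p under 0.05 in edgeR. The list is broad and also holds the kinase gene *pmk-1* and the transcription factor genes *atf-7*, *skn-1* and *daf-16*. *lin-29*, the heterochronic zinc-finger factor that drives the larval-to-adult change of the hypodermis, had 2.80, 3.33 and 3.31 CPM in N2 and 1.09, 1.76 and 1.47 CPM in the mutants (-1.13, SE 0.21, adjusted p = 0.0259, edgeR quasi-likelihood F-test, Benjamini-Hochberg adjusted). Leaving out mutant replicate 2 gave 4 regulators called lower, and each other single omission gave 0, with *lin-29* called only without mutant replicate 2. *elt-3*, a hypodermal GATA factor, had 10.98, 11.7 and 10.5 CPM in N2 and 6.005, 7.78 and 7.10 CPM in the mutants, lower on adjusted p in the fit of all libraries and short of 2-fold (-0.67, SE 0.13, adjusted p = 0.0283, same test). Both genes had their lowest value in mutant replicate 1, the library with low values for long genes, and their exons measure 2304 and 1466 bases. With the correction for exon length the median over the 22 listed genes went from -0.26 to -0.09, while that over all tested genes went from -0.04 to 0.05. That fit gave 1 regulator called lower, 3 lower on adjusted p alone and 6 lower at an unadjusted p under 0.05 in edgeR. How much of the shift is due to length was not tested. The BMP pathway gene *sma-10* was at -0.71 (adjusted p = 0.0609, same test) and did not pass.

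**Figure D5:**
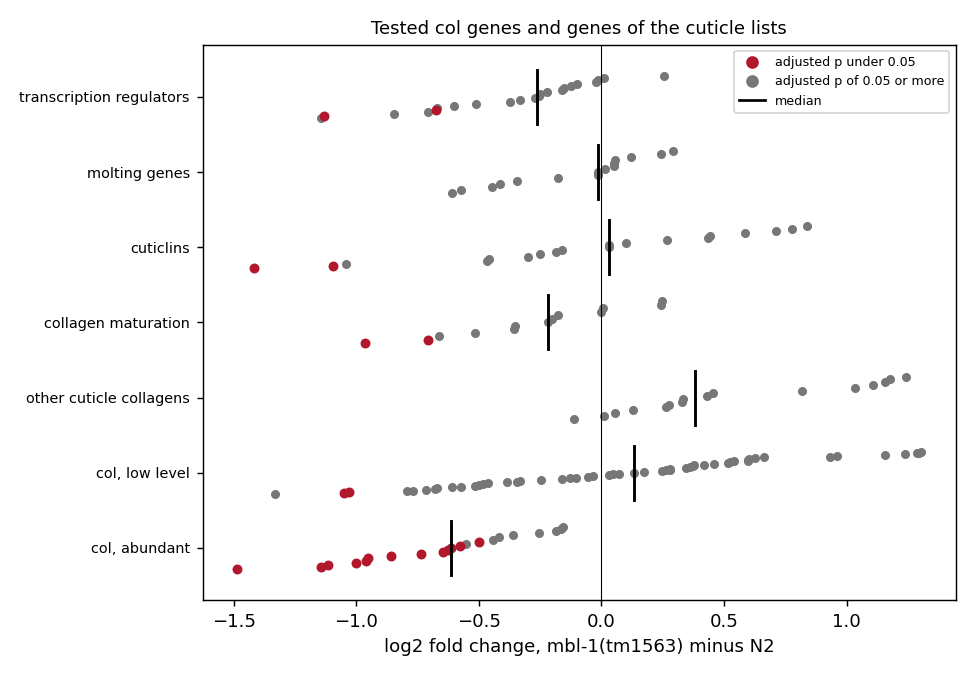
Log2 fold change (mutant minus N2) of the tested *col* genes, split at 20 CPM, and of the tested genes of 5 lists around the cuticle, a point per gene, in red where the adjusted p was under 0.05, with a bar at the median. The abundant *col* genes centre on -0.61 and the low-level ones on 0.13, and the cuticle collagens with other symbols centre on 0.38.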

How the data were processed

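Whole-animal RNA of 3 N2 and 3 *mbl-1(tm1563)* samples was made into stranded poly(A) libraries. According to the labels and the study's methods, the authors aligned reads with STAR to WBcel235, counted them per gene with HTSeq in unstranded mode and deposited the raw counts. Versions are not given in the sources used here. Reads aligned to several places, reads ambiguous between genes (0.821 to 1.01% of reads) and reads outside genes (0.463 to 0.577%) were kept out of library totals and tests. Symbols, positions and exon lengths came from Ensembl release 115 of WBcel235, which gave a symbol for 43623 of 46726 identifiers.

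The test used edgeR 4.0.16 in R 4.3.3 (filterByExpr with a minimum count of 10 and a minimum total of 15, TMM, robust quasi-likelihood test, strain as the only factor, Benjamini-Hochberg adjustment over 12335 genes). Standard errors are the log2 fold change over the square root of F. On simulated counts for these libraries the test recovered 200 of 200 genes changed 4-fold among 12356, with 2 false calls. The changed genes were drawn from well-counted ones, with the same dispersion for every gene and no replicate or length effect. Recovery of changes near 2-fold or in scarce genes was therefore not tested. Levels between genes were compared as CPM per kb of exon. DESeq2 1.42.0, other scalings and filters, a correction for exon length, a replicate block and leaving out libraries were the alternatives.

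Members and lists were chosen with earlier results of these data known. Named are the members called, the 10 most abundant, those of the role lists, the 5 with the smallest p short of 2-fold, the 2 uncalled with the largest change in each direction, those at the limit of 10 counts, and the 3 genes with the smallest p of each list. Other genes named were chosen after their values were seen. Sequence, motif, protein identity and mappability comparisons were not run here.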

Additional observations from a re-analysis of the deposited data

How the results depend on the processing

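The number of *col* genes called lower, 6, ranged from 4 to 6 under the other planned settings that kept all libraries, and it was 2 with library size alone, 3 with at least 10 counts over all libraries and 15 on adjusted p alone. Leaving out a library gave 3 to 9 calls, and leaving out replicate 3 of both strains, chosen after seeing the data, gave 0, a fit with fewer samples. The number called higher, 0, became 1 with DESeq2, 1 with the length correction (*col-107* in both) and 0 in every fit with a library left out. The median log2 fold change, -0.18, was 0.0432 with no filter and 0.0428 with at least 10 counts over all libraries, both of which add the low-count members, and -0.37 with at least 10 counts in every library, which removes them. Leaving out a library gave -0.203 to -0.0432. The ratio of summed levels, 0.680, ran from 0.636 to 0.727 when a library was left out. The labels do not say whether same-numbered replicates share a batch, and the correlations of their deviations did not settle it. They were 0.11, 0.01 and 0.13 for the same number, against -0.16 to 0.09 for other numbers. Samples correlated best with their own number in only part of the cases. With the replicate block 6 members were called lower and 1 higher (*col-107*), and the block with the length correction gave 6 lower and 2 higher (*col-107* and *col-65*). Among the other named genes the block moved *cut-6* (adjusted p = 0.0785, edgeR), *mbl-1* (0.0551) and *elt-3* (0.0547) over 0.05, left 0 body wall muscle markers lower on adjusted p, and raised the other-symbol cuticle collagens higher at an unadjusted p under 0.05 from 2 to 6. With the length correction added the latter were 8, *sqt-2* was called (1.30, adjusted p = 0.0342, edgeR), and 0 cuticlins were called. Of 770 values of 46 named genes under the alternatives, 685 kept direction and call, 63 lost the call, 18 gained one and 4 changed sign. Those 4 were 3 values of *col-38*, which ran from -0.0295 to 0.220 when a library was left out and was -0.0622 without replicate 3 of both strains, and *col-10*, which ran from -0.110 (without mutant replicate 2) to 1.12. The causes of these changes were not tested beyond the make-up of each setting. With 3 libraries a strain, members under about 1 CPM have standard errors of up to 0.81 on the log2 scale, so a 2-fold change could not be resolved for the most uneven of them.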
